A study of Arabidopsis thaliana with 4 samples.

Results

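The 8 genes described here belong to the low-oxygen response of Arabidopsis thaliana, with the enzymes of fermentation left out. They are HRA1, CML38, AT4G27450, AT1G33055, AT3G29970, AT5G66985, AT5G42200 and AT3G10020. Each was represented by 1 probe set that the array's annotation assigns to that gene alone, and the 8 compare with 13355 genes that have such a probe set. HRA1 stands in the annotation under its locus code AT3G10040, and the name is RefSeq's synonym. The genes were chosen by their place in the response and by signals on these same arrays, where low-oxygen genes as a group were high on day 3, so their day-to-day differences are described and were not tested.

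The RNA came from MM2d, an Arabidopsis cell line grown in suspension. An inoculum of 5 ml from a culture 7 days old, at the start of stationary phase, went into 100 ml of MS-salt medium with 3% sucrose, the auxin NAA at 0.5 mg/l and the cytokinin kinetin at 0.05 mg/l. All flasks were kept in the dark at 27 °C and 130 rpm, and by the labels the groups differ only in the time of collection, which was 1, 3, 5 or 7 days after dilution. No oxygen level is recorded in them. Each day was measured on 1 Affymetrix ATH1 array, with no replicate, so every difference below is one between single arrays and carries no replicate error.

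Plant cells sense oxygen through transcription factors of the ethylene response factor family, group VII. With oxygen present, these proteins are oxidised at their first cysteine and broken down. When oxygen runs short they persist and switch on a core set of genes that is shared between organs and cell types, among them genes of fermentation, regulators that hold the response in check, and many small proteins.

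In these cells 6 of the 8 genes stood out on day 3 alone. Their signal on that array was at least 2-fold above each of the other 3 days, which held for 0.569% of the 15292 probe sets measured. The genes were chosen with such values known, so nothing further is read from that count. AT5G42200 was low on day 1 and about equally high on days 3, 5 and 7, and AT3G10020 was higher on days 1 and 3 than on days 5 and 7. A signal is the MAS5 intensity on a linear scale, and a probe set counts as measured if at least 1 array exceeded a floor of 25.3, set at the 40th percentile of signals. Lower signals were set to the floor when a ratio was taken, and such a ratio is written as a bound. AT5G66985, 1 of the 6, counts as measured only through day 3, so its maximum on that day was fixed in advance.

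**Figure D1:**
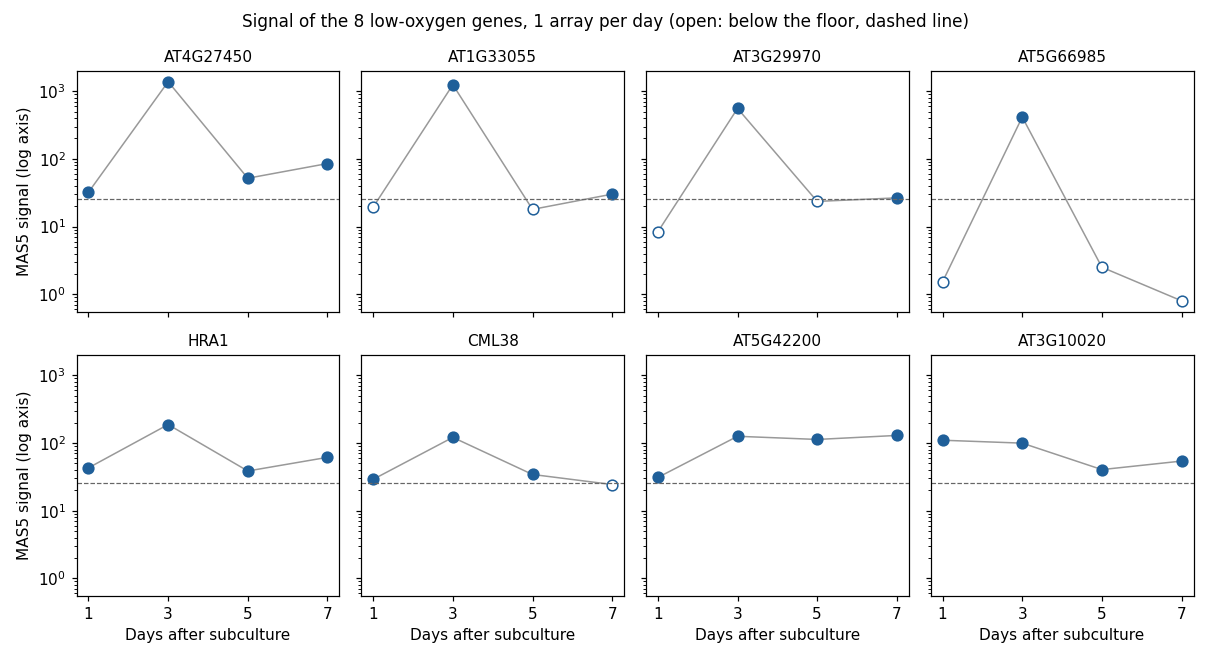
MAS5 signal (log axis) of the 8 genes against days after subculture, with 1 point per array, the floor of 25.3 as a dashed line and open points below it. The upper row and the first 2 panels of the lower row have their highest point on day 3, AT5G42200 stays high after day 3, and AT3G10020 is highest on day 1.

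Among the regulators, HRA1 encodes a trihelix transcription factor that the group VII factors switch on and that restrains them in turn. Days 1, 3, 5 and 7 gave signals of 42.9, 187, 38.6 and 61.3. Day 3 was 3.05-fold above the next highest day, day 7. Day 5 against day 1 had a log2 ratio of -0.15, which is within the disagreement between probe sets of 1 gene in that comparison (SD 0.54 log2 over 96 genes with 2 measured probe sets).

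CML38 encodes a calmodulin-like calcium-binding protein that responds to low oxygen and also to wounding. Its 4 signals, in order of days, were 29.0, 121, 34.3 and 24.3, the last of them below the floor. Day 3 was 3.53-fold above the next highest day, day 5. The sign of its day 5 against day 1 ratio (0.24) turned when arrays were scaled to a common median or quantile normalized. That of its day 7 against day 1 ratio (at most -0.20, a bound set by the floor on day 7) turned with scaling to the hybridisation controls. The profiles of HRA1 and CML38 lay close together, with a root mean square difference of 0.40 over the 4 days, each centred on its own mean log2 signal. Of 15 listed touch and wound genes only STZ, a zinc-finger repressor induced by many stresses, had its own probe set in the annotation used. Its signal was 47.5, 46.1, 80.5 and 116 on days 1, 3, 5 and 7, so it did not share the day 3 maximum.

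The largest differences belonged to 4 genes for which the annotation used gives only a locus code and no function. For AT4G27450 the signals were 32.2, 1377, 51.7 and 85.2 on days 1, 3, 5 and 7. It was above the floor throughout. Of 12514 probe sets with both of these days above the floor it had the highest ratio of day 3 to day 1, and of 12948 the lowest ratio of day 5 to day 3.

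AT1G33055 had signals of 19.4, 1243, 17.9 and 30.1 on the same days, and AT3G29970 had signals of 8.38, 555, 23.5 and 26.5. For both genes days 1 and 5 lay below the floor and day 7 just above it. AT5G66985 was near the bottom of the scale except on day 3, with signals of 1.53, 414, 2.51 and 0.801 in order of days. It counts as measured only through day 3, and no order can be read among its other days. AT3G29970 and AT5G66985 had the most similar profiles of any pair among the 8 genes, 0.18 apart by the same measure, though the floor sets days 1 and 5 of both genes, and day 7 of AT5G66985, to 1 value.

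AT5G42200 and AT3G10020, also known here by locus code alone, departed from this course in different ways. AT5G42200 had signals of 31.0, 126, 113 and 129 in order of days. Days 3, 5 and 7 lay within the error between probe sets, with a log2 ratio of -0.16 for day 5 against day 3 (SD 0.36) and of 0.20 for day 7 against day 5 (SD 0.30). AT3G10020 had signals of 110, 99.4, 40.4 and 54.0. Its step came between days 3 and 5, and days 3 and 1 differed by a log2 ratio of -0.14 (SD 0.57).

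Day 3 against day 1 set the growing culture beside the newly diluted one. Of the 8 genes 7 were at least 2-fold higher on day 3, against 4.02% of all measured probe sets, and 0 were at least 2-fold lower, against 1.65%. Since the genes were chosen with this difference known, nothing further is read from that count. Scaling to equal array medians gave shares of all probe sets of 2.71% higher and 3.07% lower, while 7 of the 8 genes were again higher. The median log2 ratio was 3.08 for the 8 genes and 0.01 for all measured probe sets. That median lies between HRA1 and AT5G66985, and the ratio of AT5G66985 is a bound, so it was 3.77 without a floor.

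The 8 ratios of day 3 to day 1 fell into 3 sizes. AT4G27450 was 42.8-fold higher on day 3, and the bounds were at least 16.4-fold for AT5G66985, at least 22.0-fold for AT3G29970 and at least 49.2-fold for AT1G33055. HRA1 (4.36-fold), CML38 (4.16-fold) and AT5G42200 (4.05-fold) were nearly alike, with log2 ratios of 2.12, 2.06 and 2.02, closer to each other than the error between probe sets. AT3G10020 had a ratio of 0.906. No other probe set of these genes was at hand to set beside these values. RNA integrity was read from 3' over 5' control probe sets. For actin the ratio was 1.45, 1.09, 1.18 and 1.05 in order of days, and for ubiquitin 1.59, 1.22, 1.30 and 1.24, both highest on day 1. For GAPDH it was 0.979, 0.950, 0.996 and 1.12, highest on day 7. The part of RNA integrity in these differences was not tested.

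**Figure D2:**
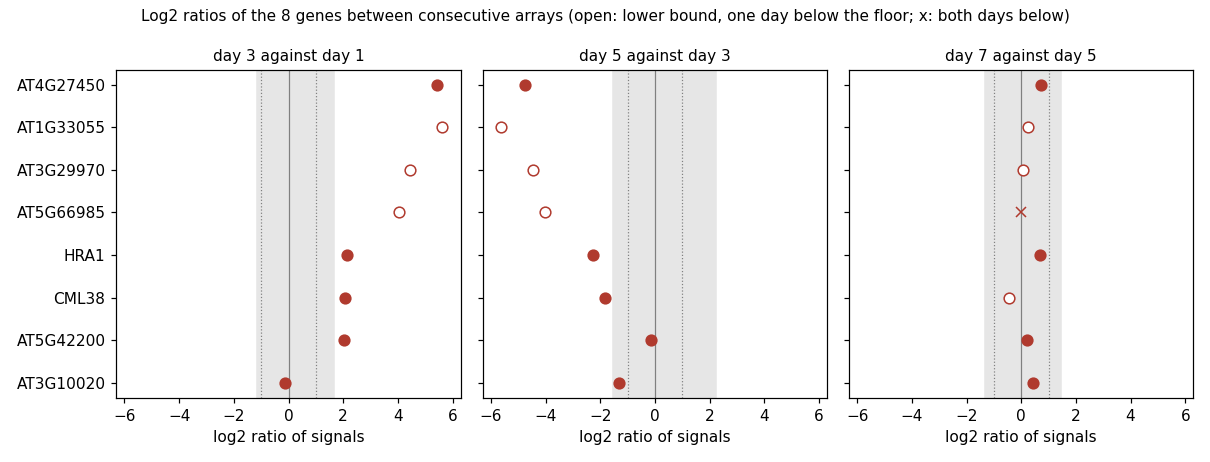
Log2 ratio of signals for each gene between consecutive arrays (horizontal axis), with the range from the 1st to the 99th percentile of all measured probe sets shaded and 2-fold limits dotted; open points are bounds with 1 day below the floor and a cross marks both days below it. On day 3 against day 1, 7 of 8 points lie right of the shading, on day 5 against day 3, 6 of 8 lie left of it, and on day 7 against day 5 all 8 lie within it.

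Day 5 against day 3 showed how much of the day 3 signal was left. By day 5, 7 of the 8 genes had signals at least 2-fold lower, against 3.81% of all measured probe sets, and 0 at least 2-fold higher, against 6.24%. The exception was AT5G42200, and AT3G10020, which had not been higher on day 3, was among the 7. Since the genes were chosen with their day 3 values known, nothing further is read from that count. AT5G66985 counts as measured only through day 3, so its lower signal on day 5 was fixed in advance. AT4G27450 kept 3.76% of its day 3 signal on day 5, AT1G33055 at most 2.03%, AT3G29970 at most 4.55% and AT5G66985 at most 6.10%. HRA1 kept 20.6%, CML38 28.3%, AT3G10020 40.7% and AT5G42200 89.8%. The median log2 ratio was -3.16, and 0.00 for all measured probe sets. The median of the 8 genes lies between HRA1 and AT5G66985, whose ratio is a bound, and it was -3.42 without a floor. This comparison and that of day 3 against day 1 share the day 3 array, so an error of that array would enter both with opposite sign.

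Day 5 against day 1, which leaves out the day 3 array, had 1 of the 8 genes at least 2-fold higher, against 8.53% of all measured probe sets, and 1 at least 2-fold lower, against 4.59%. These were AT5G42200, at 113 on day 5 and 31.0 on day 1 (3.64-fold higher), and AT3G10020, with 40.4 on day 5 and 110 on day 1 (2.71-fold lower). AT1G33055, AT3G29970 and AT5G66985 were below the floor on both days and are given no ratio. AT4G27450 was 1.61-fold higher on day 5, a log2 ratio of 0.69, not far above the error between probe sets (SD 0.54). Scaling to equal array medians gave shares of all probe sets of 5.70% higher and 8.96% lower, with 1 gene of the 8 again on each side.

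On day 7 against day 5, 0 of the 8 genes were at least 2-fold higher, against 2.94% of all measured probe sets. Lower by at least 2-fold were 0, against 2.71%. At such shares a count of 0 among 8 genes is near the background, and nothing is read from it. AT4G27450 (1.65-fold), HRA1 (1.59-fold) and AT3G10020 (1.34-fold) were higher on day 7, with log2 ratios of 0.72, 0.67 and 0.42, the last not far above the error between probe sets (SD 0.30). That of AT5G42200, 0.20, lay within it. This error leaves out differences between cultures and labellings. The bounds were at least 1.19-fold higher for AT1G33055 and 1.05-fold for AT3G29970, CML38 was at least 1.36-fold lower, and AT5G66985 was below the floor on both days. With scaling to the hybridisation controls the median of all probe sets moved to a log2 ratio of 0.30 in this comparison, 7.87% were higher and 1.08% lower, and AT4G27450 (1.06) and HRA1 (1.01) passed 2-fold. Relative to that median their log2 ratios were 0.76 and 0.71, against 0.72 and 0.67 with the deposited scaling.

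Day 7 against day 1 compared the ends of the course. On day 7, 2 of the 8 genes were at least 2-fold higher, against 13.1% of all measured probe sets, and 1 at least 2-fold lower, against 10.5%, shares of these few genes that are not far from the background. AT5G42200 was 4.17-fold higher, at 129 on day 7 and 31.0 on day 1, and AT4G27450 2.65-fold, at 85.2 on day 7 and 32.2 on day 1. AT3G10020 was 2.03-fold lower, with 54.0 on day 7 and 110 on day 1. HRA1 had a log2 ratio of 0.52, within the error between probe sets (SD 0.64). The median of the 8 was 0.16, and that of all measured probe sets was 0.06. Over all probe sets the split of higher and lower calls turned with the scaling, to 8.91% and 16.3% with a common median and to 20.7% and 6.02% with the hybridisation controls.

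The rest of the low-oxygen pathway was looked up in lists drawn from general knowledge with earlier results of these data known, so their counts are a description too. Of 40 further core low-oxygen genes, 16 had a probe set of their own and 14 were measured. On day 3 against day 1, 10 of the 14 passed the 2-fold limit upward and 0 downward, beside 4.02% and 1.65% of all measured probe sets, and the median log2 ratio was 2.69. AT4G39675 and AT5G10040, both among the 10, count as measured only through day 3. On day 5 against day 3, 10 passed it downward and 0 upward, beside 3.81% and 6.24% of all measured probe sets, and the median was -2.52. The annotation used gives all 14 by locus code only.

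AT2G17850 had signals of 34.0, 449, 35.4 and 44.9 on days 1, 3, 5 and 7. AT4G10270 had 36.4, 511, 54.6 and 39.6, and AT4G39675 had 0.926, 261, 0.968 and 1.02. All 3 were high on the day 3 array alone, the last of them like AT5G66985 at the bottom of the scale on the other days. AT4G33560 was at least 14.4-fold, AT5G10040 at least 12.8-fold, AT3G03270 8.17-fold and AT3G23170 at least 7.70-fold higher on day 3 than on day 1. AT1G74940 (5.41-fold), AT5G44730 (3.50-fold) and AT3G27220 (3.39-fold) followed.

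The other members of that list did not pass the 2-fold limit on day 3 against day 1. AT4G24110, at least 1.99-fold higher, lay just outside the 2-fold limit, with signals of 50.3 on day 3 and 10.2, below the floor, on day 1. As a bound, its ratio does not show that it differed less than the genes above. AT1G26270 had a log2 ratio of 0.68 and AT1G72940 one of 0.24. AT1G72940 was highest on day 5, with signals of 46.9, 55.3, 98.7 and 81.5 over the course. AT1G19530 passed the floor only on day 7, at 28.1. AT5G45960 and AT5G26200 were below the floor on all 4 arrays, with day 3 signals of 1.75 and 21.3. On day 7 against day 1, AT3G23170 (at least 2.73-fold) and AT3G03270 (2.50-fold) were higher and AT5G44730 (2.20-fold) was lower. These were 2 and 1 of the 14 measured genes, beside 13.1% and 10.5% of all measured probe sets. Such counts are not far from the background, and nothing is read from them.

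**Figure D3:**
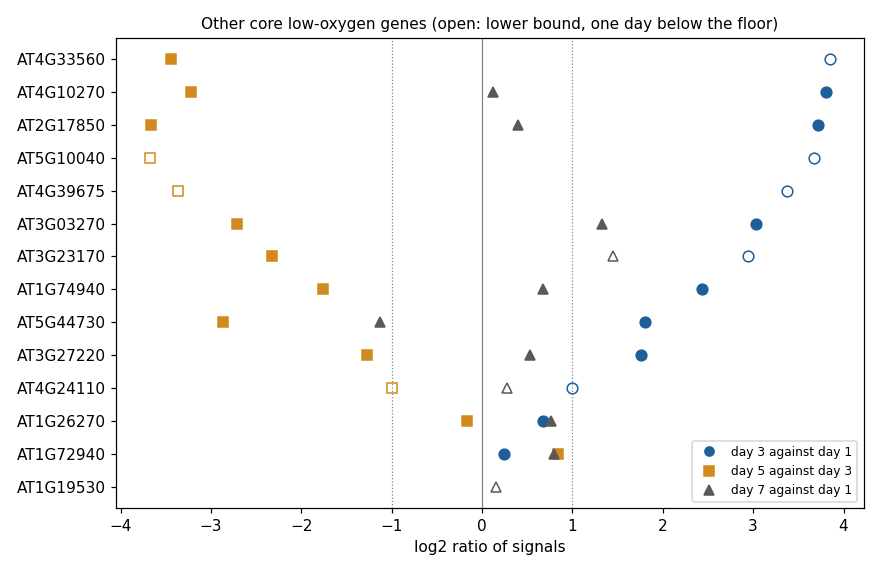
Log2 ratio of signals (horizontal axis) for the 14 measured genes of the further core list, with circles for day 3 against day 1, squares for day 5 against day 3 and triangles for day 7 against day 1; open symbols are bounds, points with both days below the floor are left out, and 2-fold limits are dotted. In 10 genes the circles lie right of the upper limit and the squares left of the lower one.

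None of 16 genes listed for oxygen sensing, among them the group VII factors and the cysteine oxidases that mark them, had a probe set that the annotation used assigns to that gene alone, and they were not analysed here. That annotation leaves 8730 probe sets unnamed, and probe sets of these genes may be among them. The same holds for genes of the other lists without a probe set of their own. Of 11 genes of fermentation and sucrose breakdown, 2 were measured. PDC2, a pyruvate decarboxylase of ethanol fermentation, had signals of 205, 573, 260 and 257 on days 1, 3, 5 and 7, and its ratio of day 3 to day 1 (log2 1.49) was smaller than those of the 7 genes described above that were higher on day 3. AT4G17260, the other gene measured from that list, had 122, 126, 176 and 130.

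Few markers of other states of the cells were measured. None of these was at least 2-fold higher on day 3 than on day 1, against 4.02% of all measured probe sets. For so few genes that is near the background, and nothing is read from it. Of 12 sugar starvation genes 2 had their own probe set. IVD, which acts in the breakdown of leucine, had signals of 75.9, 70.5, 62.7 and 75.2, and AKINBETA1, a subunit of a starvation-responsive kinase, 43.6, 69.9, 56.9 and 65.7. Of 14 markers of dividing cells, 2 were at hand, and the Aurora kinase genes AUR1 (475, 399, 363 and 227) and AUR3 (181, 221, 118 and 133) were above the floor on all days. AKINBETA1 and AUR3 had their highest signal on day 3, 1.60-fold and 1.22-fold above day 1. Of 15 markers of green cells, only RCA, the activase of Rubisco, was at hand, with 152, 112, 150 and 93.6. What part such cells had in the day 3 values was not tested. In bulk samples such as these, fewer cells that express a gene and less of its RNA per cell cannot be told apart.

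Likeness of profile was then measured over 8494 probe sets that were measured, name 1 gene outside the 8 and carry no mark of cross-hybridisation. Each was compared over the 4 days with the median profile of the 8 genes, by the root mean square difference of centred log2 signals. Of the 10 closest, 8 stood in the further core list, which was itself drawn up from knowledge of this response and with earlier results of these data known. They were AT2G17850 (0.20), AT4G39675 (0.21), AT5G10040 (0.30), AT4G10270 (0.34), AT4G33560 (0.36), AT3G03270 (0.43), AT3G23170 (0.52) and AT1G74940 (0.54). AT4G39675 and AT5G10040 count as measured only through day 3, and the floor sets their other days to 1 value. It also sets days 1 and 7 of AT4G33560 and day 1 of AT3G23170.

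The 2 outside any low-oxygen list were AT1G66180 and AT5G02580. AT1G66180 had signals of 49.2, 189, 30.6 and 33.4 in order of days. AT5G02580 had 7.65, 152, 11.9 and 70.7, so that it was higher again on day 7. Its signals on days 1 and 5 lay below the floor. The measure rests on 4 arrays that all probe sets share.

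**Figure D4:**
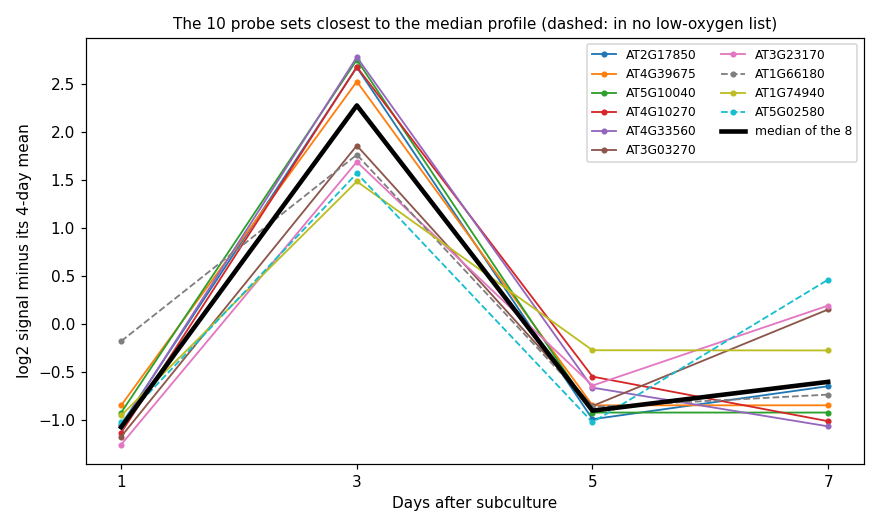
Centred log2 signal (log2 signal minus its mean over the 4 days) against days after subculture for the 10 probe sets closest to the median profile of the 8 genes, which is the thick black line; dashed lines are the 2 genes in no low-oxygen list. All have their maximum on day 3, and AT5G02580 has the highest day 7 point.

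Taken singly, the genes had different neighbours by this measure. AT2G17850, AT5G10040 and AT4G33560 were the 3 closest to each of AT4G27450, AT1G33055, AT3G29970 and AT5G66985, at 0.62 to 0.68 for AT4G27450, 0.81 to 0.85 for AT1G33055, 0.33 to 0.40 for AT3G29970 and 0.16 to 0.25 for AT5G66985. The floor sets days 1, 5 and 7 of both AT5G66985 and AT5G10040 to 1 value, so their distance of 0.16 reflects day 3 alone. It also sets days 1 and 7 of AT4G33560 and days 1 and 5 of AT1G33055 and AT3G29970. AT3G58210 (0.28), AT1G74940 (0.31) and AT5G02460 (0.31) were closest to HRA1. The plastid gene rpl36, for a protein of the plastid ribosome (0.22), AT4G00960 (0.22) and AT3G10080 (0.28) were closest to CML38. The floor sets day 5 of AT3G58210, days 1 and 5 of AT5G02460, days 1 and 7 of AT4G00960 and day 7 of CML38. AT5G42200 was closest to AT2G43160 (0.05), AT3G45310 (0.10) and DME, a DNA glycosylase that removes methylated cytosine (0.16). Day 1 of AT3G45310 (5.09) and of DME (23.4) lay below the floor, so both distances depend on it. AT3G10020 was closest to AT3G09720 (0.06), AT4G13120 (0.07) and AT3G09470 (0.08). The measure grows with the size of a profile's own differences, so these distances are not compared between genes.

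AT3G10020 and HRA1 lie near each other on the chromosome, with 1 protein-coding gene between them in RefSeq's table for assembly TAIR10.1, and their profiles were 0.82 apart. The gene between them, AT3G10030, had signals of 86.1, 139, 106 and 113. Within 2 places on either side of the 8 genes RefSeq lists 29 other protein-coding genes, of which 15 had their own probe set and 11 were measured. Of these 11, 1 passed the 2-fold limit upward on day 3 against day 1 and 0 downward, beside 4.02% and 1.65% of all measured probe sets, a share too close to the background to read anything from 11 genes. Their median log2 ratio was 0.37, and that of all measured probe sets was 0.01. The 1 was NAC014, a NAC transcription factor gene next to AT1G33055, with signals of 251 on day 3 and 88.2 on day 1 (2.85-fold higher). Next to CML38, AT1G76660 reached 84.1 on day 3, against 42.4 on day 1, a log2 ratio of 0.99. PORB, a chlorophyll synthesis gene next to AT4G27450, was below the floor on day 3, at 5.69, and had 45.6 on day 1. Its log2 ratio is a bound of at most -0.85, so the count of 0 downward depends on the floor.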

How the data were processed

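The deposited intensities are linear MAS5 signals, per the submitters' processing notes, which name no version. After trimming 2% of values at either end, the arrays shared a mean of 100.0 and were used without further scaling, and a change in total RNA per cell would not show. The table holds 22810 probe sets, 64 of them controls, which were left out. The number of arrays limits the precision: 1 per day, with no test between days. Signals under the 40th percentile (25.3) were raised to it before log2 ratios were taken, and 2-fold differences were counted. Error was gauged as the SD between log2 ratios of 2 probe sets of 1 gene, which leaves out differences between cultures and labellings.

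Genes were named through the platform annotation (13513 probe sets with 1 gene, 503 with several, 8730 unnamed here), with symbols updated from RefSeq's table for TAIR10.1, which matched 13436. No sequences or coordinates are given. The 8 genes and all 7 further lists were chosen with earlier results of these data known. All 8 genes are named, with the measured members of the further core list, up to 4 fermentation genes, up to 2 genes of each remaining list, and the 10 (all 8 together) or 3 (singly) closest profiles; chromosomal neighbours and array controls were added after their values were seen. Alternatives varied the floor, the scaling, the fold limit, a pseudocount and the probe sets. Counts and likeness, computed with Python 3.11.15, numpy 2.4.6 and pandas 2.3.3, were tested on simulated data.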

Additional observations from a re-analysis of the deposited data

How the results depend on the processing

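No paired analysis was possible because each day has 1 array, and all share replicate number 1. The counts of 7 genes higher on day 3 than on day 1 and 7 lower on day 5 than on day 3 changed by no more than 1.5 times under any of the alternatives tried. Their medians moved by more than the error between probe sets to 3.65 with the floor at the 25th percentile and 3.77 with no floor (day 3 against day 1, 3.08 as reported), and to -2.76 with the floor at the 50th percentile (day 5 against day 3, -3.16 as reported); these medians include bounds, which the floor sets. For day 7 against day 5, 1 gene was lower with no floor, and 2 were higher with scaling to the hybridisation controls or a 1.5-fold limit (0 as reported). For day 7 against day 1, the 1 gene lower became 0 with those controls, with log2(signal + 16) or with a 3-fold limit, which also left 1 higher in place of 2. For day 5 against day 1, the genes higher became 2, not 1, with the floor at the 25th percentile, no floor or a 1.5-fold limit, and 0 were lower with a 3-fold limit. Of 320 recomputed ratios of single genes, 37 moved by more than that error, 33 of them with another floor, no floor or the pseudocount and 4 with the hybridisation controls. Signals near the floor have no detection calls here, so AT5G66985 in particular has only bounds.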
